A study of Oryza sativa Japonica Group with 6 samples.

Results

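Cyclins and the cyclin-dependent kinases (CDKs) they activate were followed in mature anthers of rice (Oryza sativa, Japonica group) carrying a mutation called dao and in wild-type anthers. The members are the probe sets whose gene has a symbol or synonym, with a leading Os dropped, that starts with CYCA, CYCB, CYCD, CYCT, CYCH or CDK and goes on with a letter, a digit or a hyphen. The rule uses names only and found 40 of the 57381 probe sets, belonging to 30 genes. They are 8 probe sets of A- and B-type (mitotic) cyclins, 10 of D-type cyclins, 3 of T- and H-type cyclins and 19 of CDKs. Another 7 genes with such names (CDKB1-1, CDKC-2, CDKF-2, CYCA3-1, CYCB1-5, CYCD2-1 and CYCT1;1) had no probe set paired with them and were not analysed here.

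In the plant cell cycle, D-type cyclins bind the A-type kinase CDKA at the start of the cycle, and the complex phosphorylates the retinoblastoma-related protein, which otherwise holds back E2F factors and the genes of DNA replication. A-type cyclins act from DNA replication to mitosis, and B-type cyclins, with CDKA and the plant-specific CDKB kinases, drive entry into mitosis. T-type cyclins with CDKC kinases act on RNA polymerase II, and H-type cyclins with CDKD kinases activate other CDKs. Rice pollen is shed with its sperm cells already formed, so the pollen divisions are over in a mature anther.

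DAO is the dioxygenase for auxin oxidation, which inactivates the auxin indole-3-acetic acid. There were 3 arrays of wild type and 3 of the dao mutant, all from mature anthers at anthesis of field-grown plants of a japonica variety. Biotin-labelled RNA was hybridised to Affymetrix rice arrays, which have 1 colour. The sources used here give neither the allele nor how many plants made up a sample, and one free-text label line speaks of seedlings (named Epi-df for the dao samples) where all other fields name anthers. The titles call the arrays biological replicates, but nothing says that they came from separate plants or harvests, so p-values measure the spread between these samples only. Values are the deposited linear intensities, with no detection calls. The number of arrays limits their precision, and levels of different probe sets are not set against each other.

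In both groups the array numbered 3 lay between the other 2 more often than they did. Over the 34355 probe sets tested this held for 52.5% in wild type and 55.2% in dao, against 17.9% to 28.7% for the other arrays, and the probe sets called numbered 1157 with all arrays and 0 without both arrays numbered 3. Whether the arrays numbered 3 are independent samples is not known and was not tested. If they are not, the number of independent arrays is under 3 in each group and the p-values are too small. DAO itself was higher on the dao arrays (1168 to 1551) than on the wild-type arrays (480 to 883), with a log2 difference of 1.04 (limma adjusted p = 0.0251), and no source used here places its probes relative to the mutation, so its level does not check the labels. A difference is called when the limma p, adjusted over all 34355 probe sets, is at most 0.05 and the groups differ at least 2-fold, the limits of the series' design text. The median log2 difference over all probe sets tested was -0.01. Whole anthers were sampled, so fewer cells of a type and less RNA per cell cannot be told apart in any value below.

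Marker genes of other cell types moved with single arrays in some lists and with the groups in others. The 16 probe sets of the green tissue list, which holds chlorophyll-binding proteins, photosystem I subunits and Rubisco, summed to 2310 to 4393 in wild type and 2054 to 6801 in dao, where dao array 2 was the lowest of the 6 and dao array 1 the highest. Of these, 1 probe set of PSAG, a photosystem I subunit, was higher on every dao array (120 to 131 against 160.3 to 188, adjusted p = 0.0437). The other PSAG probe set had a lower mean in dao, with overlap (24.2 to 30.1 against 20.3 to 26.2, log2 -0.22, limma adjusted p = 0.467). It was the only one of the 14 tested in the green tissue list with a difference below 0. The other 13 were above 0 (median log2 of the 14 0.48), beside 16949 of all 34355 probe sets tested. The 9 of the tapetum and early anther list summed to 874 to 950 in wild type and 863 to 1606 in dao, again with dao array 1 highest. Of these, C6 read 87.6, 125 and 106 in wild type and 531, 149 and 438 in dao (log2 1.63, limma adjusted p = 0.0524). MSP1 was also higher on every dao array (log2 0.65, limma adjusted p = 0.149), and RAFTIN1 had a lower mean in dao (log2 -0.36). Of the 8 tested in this list, 6 differences were above 0 and 2 below, and none passed. The 4 of the pistil and carpel list summed to 515 to 766 and 761 to 787. Of these, MADS13, an ovule identity gene, read 5.49, 6.58 and 6.47 in wild type and 29.4, 20.4 and 26.1 in dao (limma adjusted p = 0.00212, and 0.239 without both arrays numbered 3). Its wild-type mean of 6.18 lay under the filter limit of 6.33, so it was tested only through its dao arrays and the size of the difference is not exact. Most of the pistil and carpel sum was MADS58, at 490 to 744 and 717 to 743, with overlap (log2 0.26, limma adjusted p = 0.325). DL overlapped too, with a lower mean in dao (log2 -0.09). MADS21 was below the filter, at 3.02 to 3.30 in wild type and 3.84 to 5.73 in dao. The 2 pollen beta-expansins EXPB9 and EXPB10, which loosen cell walls, summed to 18963 to 21153 and 16447 to 18227, a sum lower on every dao array. EXPB9 alone was also lower on every dao array (log2 -0.16, limma adjusted p = 0.105). EXPB10 overlapped between groups (log2 -0.24, limma adjusted p = 0.284), and neither passed. The 11 of the meiosis list summed to 184 to 199 and 204 to 222, higher on every dao array. Of these, MEL1, a germline Argonaute, read 53.3, 50.7 and 56.8 in wild type and 87.1, 100.7 and 90.06 in dao (log2 0.79, adjusted p = 0.0125, and 0.363 without both arrays numbered 3). The other 10 summed to 128 to 145 and 111 to 135, with log2 differences of -0.92 for dmc1A and of -0.59 and -0.39 for the 2 probe sets of MER3, both genes of meiotic recombination, which did not pass. Others were higher or level in dao, with log2 differences of 0.20 for SDS, 0.23 for PAIR2 and 0.00 and 0.01 for HEI10. Of the 8 probe sets of the meiosis list that were tested, 5 differences were above 0, that of MEL1 among them, and 3 below (median log2 0.01). None of the markers was listed at 0, and the part of these cell types in the values below was not tested.

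Of the 40 probe sets, 34 had a mean log2 signal above the 40th percentile and were tested, representing 28 genes. None of the 34 was called, where 3.37% of all probe sets tested were, 2.03% as higher and 1.34% as lower in dao (limma). At an unadjusted p under 0.05 there were 11 of the 34 (32.4%), 6 higher and 5 lower in dao, beside 26.4% of all. On the adjusted p alone, without the 2-fold limit, 2 of the 34 passed (5.88%), 1 in each direction, beside 9.89% of all. The dao and wild-type arrays did not overlap for 15 of the 34 (44.1%), 7 higher and 8 lower, beside 31.4% of all. The median log2 difference of the 34 was -0.01, as over all probe sets, with a range from -0.91 to 0.86. The 2 that passed on the adjusted p alone were the mitotic cyclin CYCB1-3, which was lower in dao, and the D-type cyclin CYCD4-1, which was higher.

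**Figure D1:**
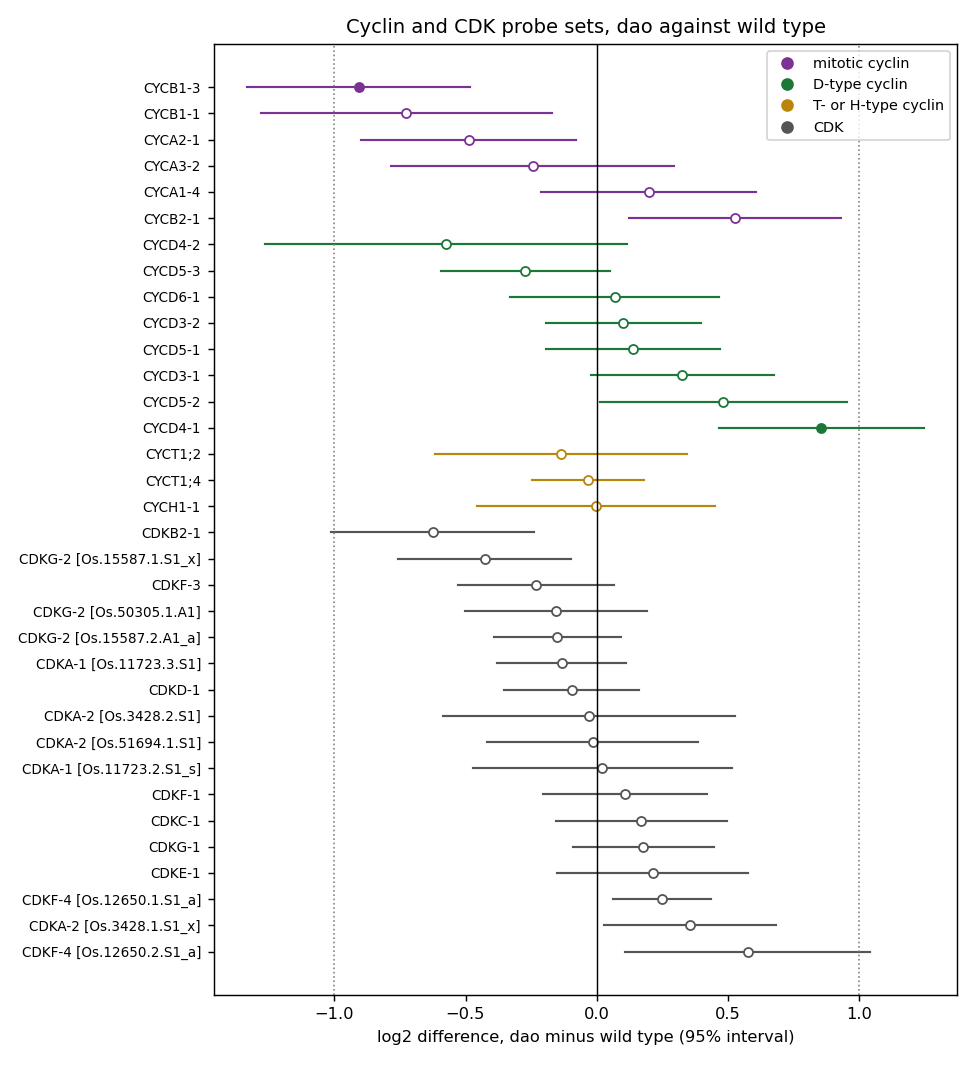
Log2 difference, dao minus wild type, of the 34 probe sets tested, with its 95% interval from the limma fit (3 arrays against 3), by class and in order of the difference. Filled points have an adjusted p of at most 0.05 (CYCB1-3 at -0.91 and CYCD4-1 at 0.86), and all 34 points lie inside the dotted lines that mark a 2-fold difference.

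Among mitotic cyclins, 6 of 8 probe sets were tested, and 4 of the 6 had a lower mean in dao. None was called. Their median log2 difference was -0.37, beside -0.01 over all probe sets tested, and their range from -0.91 to 0.53 spanned both directions. On the adjusted p alone 1 passed in the lower direction, beside 3.35% of all probe sets. The arrays of the groups did not overlap for 4 of the 6, 3 lower (13.5% of all) and 1 higher (17.9% of all). The 2 probe sets left out by the filter, both of CYCB2-2, were higher on every dao array. With no filter the median log2 difference of the class was -0.024, so the lower median depends on the filter.

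CYCB1-3 (LOC4326914), a B-type cyclin, had a signal of 32.4, 34.6 and 31.4 on wild-type arrays 1, 2 and 3 and of 13.7, 20.3 and 19.3 on the dao arrays. All 3 dao arrays lay well below the wild-type arrays, which differed little among themselves. On the log2 scale the groups differed by -0.91 (SE 0.18, 95% interval -1.33 to -0.48, limma adjusted p = 0.0236), short of 2-fold. The adjusted p was at most 0.05 in 14 of 18 settings. It was 0.0995 without wild-type array 3, 0.0579 without dao array 1, 0.0892 without dao array 3 and 0.371 without both arrays numbered 3, where the log2 difference was -1.01. Without dao array 2 the gene passed both limits (log2 -1.01, adjusted p = 0.0218), and with 32 added to each signal the log2 difference was -0.38. The gene table also gives CYCB1-1 as a synonym of this locus, a name it shares with the next gene.

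CYCB1-1 (LOC4327547), the other B1-type cyclin, was at 62.0, 53.6 and 52.9 in wild type and at 25.9, 49.3 and 30.5 in dao. Dao array 2, which was also the lowest array of the green tissue list, was close to wild type, while dao arrays 1 and 3 lay well below it. The groups differed by -0.72 on the log2 scale (SE 0.24, 95% interval -1.28 to -0.17, adjusted p = 0.101). Without both arrays numbered 2 it was -1.03 and passed both limits (adjusted p = 0.0140), and without both arrays numbered 3 it was -0.69 (adjusted p = 0.586).

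CYCB2-1 (LOC4336670), a B2-type cyclin, stood on the other side, at 86.2, 97.6 and 92.3 in wild type and 165, 106 and 134 in dao. Every dao array was above every wild-type array, with dao array 2 the nearest to them. This came to a log2 difference of 0.53 (SE 0.17, 95% interval 0.12 to 0.93, adjusted p = 0.101). CYCB2-2, its paralog, had 2 probe sets below the filter. One read 5.23, 4.15 and 4.26 in wild type and 5.63, 11.1 and 5.69 in dao, and the other, of a type that may also bind other transcripts, 3.90, 3.91 and 3.87 against 5.01, 6.49 and 4.69. Both were higher on every dao array, with dao array 2 the highest array of each. Both lay in the dimmest 40% of probe sets by mean log2 signal.

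**Figure D2:**
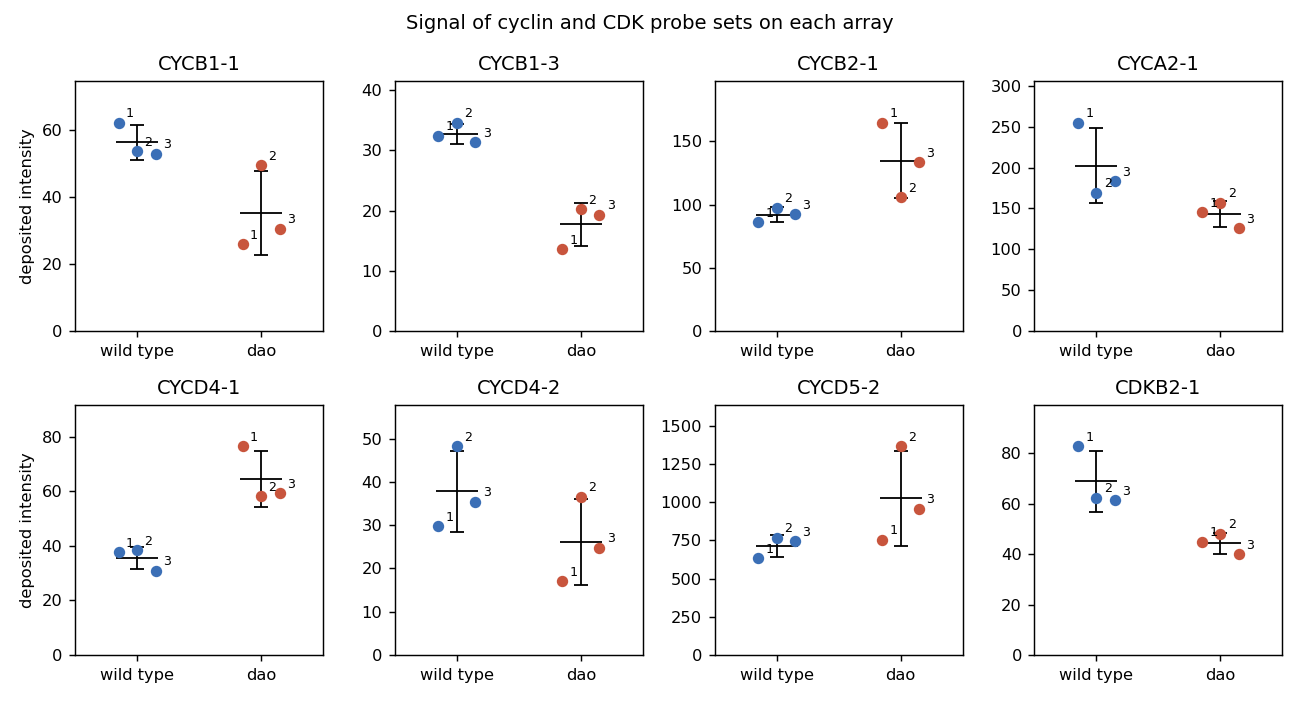
Deposited intensity (linear axis from 0) of 8 probe sets on each array, wild type in blue and dao in red, with the array number beside each point and bars at the mean ± SD of 3 arrays. CYCB1-3, CYCB1-1, CYCA2-1 and CDKB2-1 lie lower on all dao arrays and CYCB2-1 and CYCD4-1 higher, while the groups overlap for CYCD4-2 and CYCD5-2.

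Of the A-type cyclins, CYCA2-1 (LOC4352280) was at 255, 169 and 183 in wild type and at 145, 157 and 126 in dao. The groups did not overlap, but wild-type array 1 stood apart from the other 2 by more than these did from dao. The log2 difference was -0.49 (SE 0.18, adjusted p = 0.127) and came to -0.31 without wild-type array 1. CYCA3-2 read 35.1, 24.1 and 22.0 in wild type and 27.8, 18.04 and 22.3 in dao, and CYCA1-4 read 38.4, 30.5 and 34.2 against 47.9, 34.5 and 36.7. In both the groups overlapped, and their log2 differences were -0.24 (adjusted p = 0.561) and 0.20 (adjusted p = 0.534). CYCA3-2 was highest on wild-type array 1, as CYCA2-1 was.

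Of the D-type cyclins, which pass growth and hormone signals on to the cell cycle, 8 of 10 probe sets were tested, and 6 of the 8 had a higher mean in dao. None was called, their median log2 difference was 0.12, and their range ran from -0.57 to 0.86. On the adjusted p alone 1 passed in the higher direction, beside 6.53% of all probe sets. Groups without overlap were found for 3 of the 8, of which 2 were higher and 1 lower, beside 31.4% of all probe sets tested.

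CYCD4-1 (LOC4347313) had a signal of 37.6, 38.3 and 30.9 in wild type and of 76.4, 58.3 and 59.2 in dao. All dao arrays were above all wild-type arrays, and dao array 1 was the highest. The limma fit gave a log2 difference of 0.86 (SE 0.17, 95% interval 0.47 to 1.24, limma adjusted p = 0.0216), short of 2-fold, and the adjusted p was at most 0.05 in 14 of 18 settings. It was 0.109 without wild-type array 3, 0.0708 without dao array 1, 0.0899 without dao array 3 and 0.394 without both arrays numbered 3 (log2 0.81). With 32 added to each signal the log2 difference was 0.51.

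Its paralog CYCD4-2 (LOC4345844) was at 29.8, 48.2 and 35.5 in wild type and at 17.0, 36.6 and 24.8 in dao, with overlapping groups. In each group array 2 was the highest and array 1 the lowest. Its log2 difference was -0.57 with a wide interval (95% interval -1.26 to 0.12, adjusted p = 0.270). CYCD4-1 and CYCD4-2 thus had differences of opposite sign, and the difference between them was not tested.

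The CYCD5 genes also differed in sign. CYCD5-2 (LOC4352668) read 634, 769 and 744 in wild type and 756, 1366 and 957 in dao. Dao array 2 was far above the other 5 arrays, and dao array 1 lay within the wild-type range. Its log2 difference was 0.48 (SE 0.20, adjusted p = 0.178) and 0.25 without dao array 2. A second probe set of the gene, below the filter, read 3.67 to 5.47 in wild type and 4.07 to 4.50 in dao. CYCD5-3 was at 35.9, 40.3 and 42.4 against 32.2, 34.2 and 31.6, lower on every dao array by a small margin (log2 -0.27, adjusted p = 0.263). CYCD5-1 was at 16.7, 16.6 and 14.6 against 18.3, 15.7 and 18.7, with overlap (log2 0.14, adjusted p = 0.601).

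CYCD3-1 (LOC4340499), of the D3 group that in Arabidopsis responds to cytokinin, read 10.3, 9.35 and 11.7 in wild type and 14.8, 12.7 and 11.8 in dao. The groups did not overlap, though wild-type array 3 and dao array 3 were almost at the same value. Its log2 difference was 0.33 (SE 0.15, adjusted p = 0.215). CYCD3-2 read 7.70 to 8.98 in wild type and 8.38 to 9.83 in dao (log2 0.10), and CYCD6-1, whose Arabidopsis namesake acts in formative root divisions, 20.5 to 26.0 and 20.7 to 27.6 (log2 0.07). CYCD2-2 was below the filter, at 4.38 to 5.32 in wild type and 4.69 to 5.01 in dao.

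The T- and H-type cyclins all had overlapping groups, and none of the 3 was called. CYCT1;4 (LOC4352229) was at 506, 470 and 475 in wild type and at 491, 458 and 468 in dao, a log2 difference of -0.03 with a narrow interval (95% interval -0.25 to 0.18, adjusted p = 0.856). CYCT1;2 read 143, 99.1 and 108 against 125, 81.1 and 113 (log2 -0.14, 95% interval -0.62 to 0.34, adjusted p = 0.727). CYCH1-1, the cyclin of the CDK-activating kinase, read 172, 100 and 137 against 141, 125 and 134 (log2 0.00, 95% interval -0.45 to 0.45, adjusted p = 0.996). In all 3 genes wild-type array 1 was the highest array. The sign of the difference turned when single arrays were left out for CYCT1;2 and CYCH1-1.

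Of 19 CDK probe sets 17 were tested, with 8 means higher and 9 lower in dao, and none was called. Their median log2 difference was -0.01 and their range -0.63 to 0.57. None passed on the adjusted p alone, and 5 had an unadjusted p under 0.05, 3 higher and 2 lower, beside 26.4% of all probe sets. Groups did not overlap for 8 of the 17, with 4 in each direction, beside 31.4% of all.

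CDKB2-1 (LOC4346016), a mitotic kinase found in plants and a partner of B2-type cyclins in rice, was at 82.7, 62.3 and 61.5 in wild type and at 45.0, 48.1 and 39.9 in dao. All dao arrays were below all wild-type arrays. The log2 difference was -0.63 (SE 0.17, 95% interval -1.01 to -0.24, limma adjusted p = 0.0541), and the adjusted p was at most 0.05 in 6 of 18 settings. It came to -0.49 without wild-type array 1 (adjusted p = 0.0797) and to -0.63 without both arrays numbered 3 (adjusted p = 0.497).

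The A-type kinases act throughout the cycle. CDKA-1 (LOC4331415) was at 180.3, 99.1 and 121 in wild type and at 141, 123.2 and 130.3 in dao by 1 probe set, with all dao arrays inside the wild-type range (log2 0.02, 95% interval -0.47 to 0.51). That probe set is also of a type that may bind other transcripts. The second probe set of CDKA-1 read 7.41 to 7.89 against 6.602 to 7.36 (log2 -0.13, adjusted p = 0.477). For CDKA-2 (LOC4328135) the 3 probe sets differed. The one of a type that may bind other transcripts read 15.5, 17.3 and 14.3 against 20.9, 18.7 and 20.4, without overlap (log2 0.36, adjusted p = 0.160), and the other 2 overlapped with log2 differences of -0.03 and -0.01.

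The kinases of transcription and of CDK activation were mostly close between groups. CDKD-1 (LOC4338689), the rice CDK-activating kinase also named R2, was at 452, 393 and 413 in wild type and at 418, 356 and 402 in dao (log2 -0.10, 95% interval -0.35 to 0.16). CDKC-1, a partner of T-type cyclins, was at 100.3, 81.8 and 76.0 against 94.7, 97.9 and 95.8 (log2 0.17). The 3 dao arrays of CDKC-1 lay close together inside the wild-type range. CDKE-1, the kinase of the Mediator complex, was at 142, 149 and 120 against 142, 191 and 146 (log2 0.21, adjusted p = 0.443), and its second probe set, below the filter, read 3.95 to 5.53 against 4.90 to 5.85. CDKF-1, whose Arabidopsis namesake activates CDKD kinases, was at 112 to 141 against 124 to 140.3 (log2 0.11).

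CDKF-4 (LOC4330434) was higher on all dao arrays by both of its probe sets. One read 4487, 4436 and 4317 in wild type and 4834, 5755 and 5191 in dao, with a log2 difference of 0.25 (SE 0.08, 95% interval 0.06 to 0.44, adjusted p = 0.0947). The other read 153, 181 and 166 against 344, 209 and 210, with dao array 1 far above the rest (log2 0.57, SE 0.20, adjusted p = 0.117), and the log2 difference was 0.34 without dao array 1. CDKF-3 was at 302, 304 and 300.2 in wild type and at 237, 304 and 236 in dao. Dao array 2 thus had the wild-type level and the other 2 lay below it (log2 -0.23, adjusted p = 0.300).

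CDKG-2 (LOC4336224), of a group linked to RNA splicing in Arabidopsis, had means below wild type by all 3 of its probe sets. One, of the type that may bind other transcripts, read 78.5, 86.5 and 77.2 in wild type and 55.9, 68.9 and 55.9 in dao (log2 -0.43, SE 0.14, adjusted p = 0.101). The second read 311, 321 and 316 against 298, 298 and 259, without overlap (log2 -0.15), and the third 17.2 to 21.3 against 16.3 to 19.0, with overlap (log2 -0.15). CDKG-1 was at 103, 116 and 108 in wild type against 121, 127 and 121, higher on every dao array (log2 0.18, adjusted p = 0.382), and its second probe set, below the filter, read 3.69 to 3.79 against 3.00 to 4.33.

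**Figure D3:**
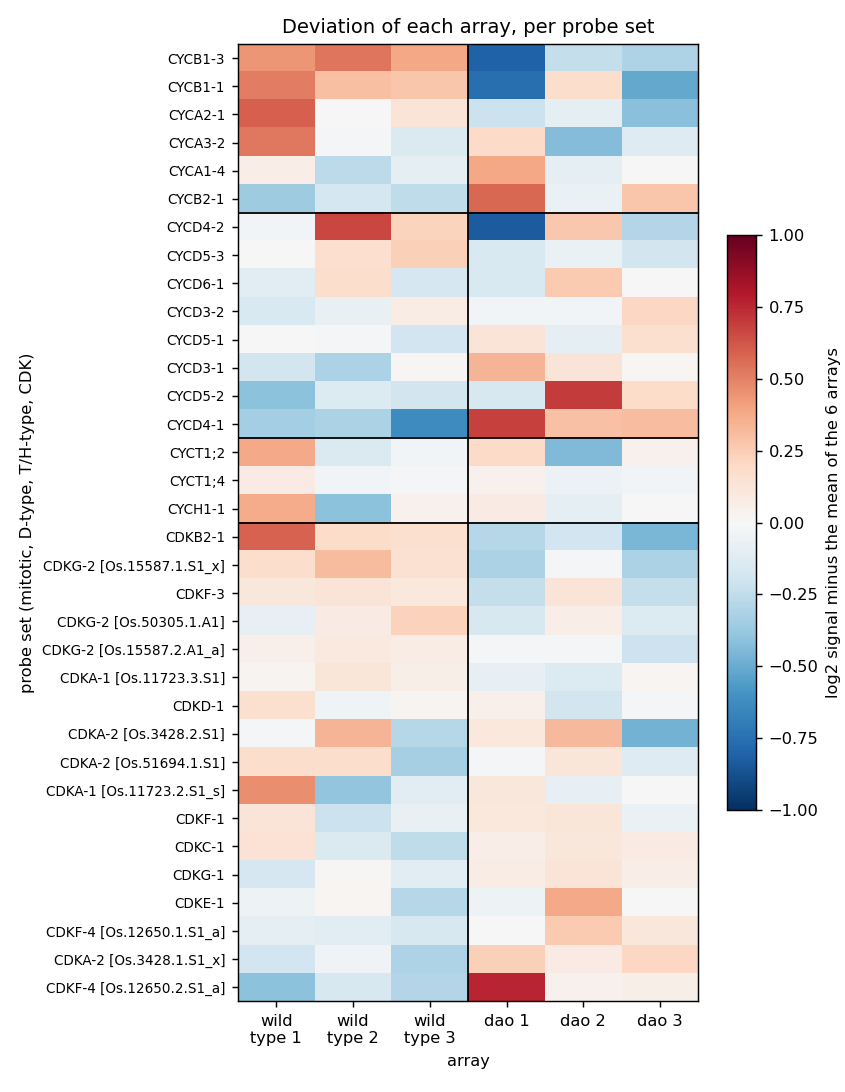
Log2 signal minus the mean of the 6 arrays for each of the 34 probe sets tested (rows, in the order of class and difference) on each array (columns), red above and blue below that mean. CYCB1-3 and CYCD4-1, the 2 with an adjusted p of at most 0.05, have 1 colour in each group, as do some other rows such as CDKB2-1. Most CDK rows are pale on all arrays.

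Some arrays held the highest or lowest value of more members than others did. Wild-type array 1 held the highest value of 12 of the 34 probe sets and the lowest of 5, while wild-type array 3 held the highest of 2 and the lowest of 8, and dao array 3 the highest of 2 and the lowest of 7. Such counts were not made over all probe sets, so whether they are particular to the members is not known. Wild-type array 1 lay between the other wild-type arrays in 26.5% of the 34, beside 17.9% of all probe sets. Dao array 2 lay between the other dao arrays in 1 of the 34, beside 22.6% of all probe sets. Among the mitotic cyclins, the median log2 deviation from the mean of the 6 arrays was 0.47, 0.00 and 0.01 on wild-type arrays 1, 2 and 3 and -0.01, -0.09 and -0.22 on the dao arrays. Wild-type array 1 was thus the highest and dao array 3 the lowest. Among the D-type cyclins it was -0.13, -0.04 and -0.08 in wild type and -0.09, 0.19 and 0.09 in dao, so dao array 1 was within the wild-type range. Among the CDKs it was 0.05, 0.02 and -0.10 against 0.01, 0.09 and -0.01.

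**Figure D4:**
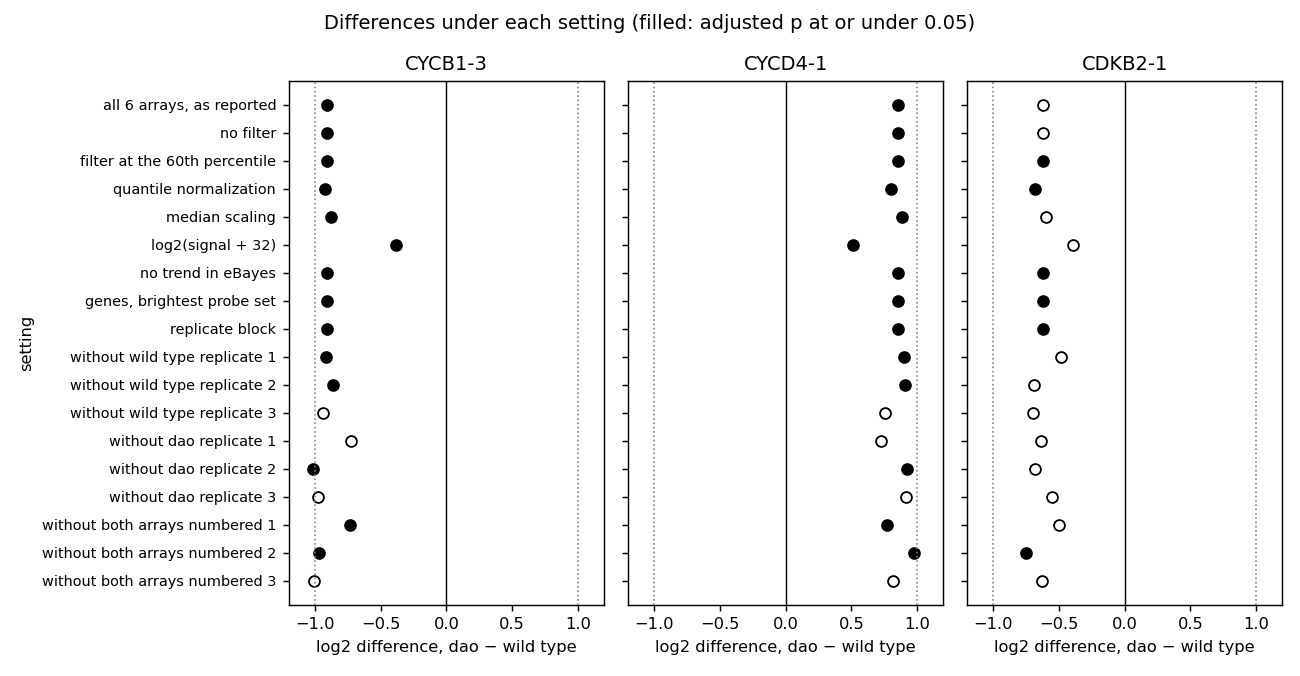
Log2 difference, dao minus wild type, of CYCB1-3, CYCD4-1 and CDKB2-1 with all arrays and under 17 alternatives, filled where the adjusted p was at most 0.05, with dotted lines at a 2-fold difference. The sign is the same in every setting, and the points are open for all 3 genes without wild-type array 3, without dao array 1, without dao array 3 and without both arrays numbered 3.

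Other cell cycle genes, found by symbol in lists that hold no member, gave 50 probe sets tested of 58. Of these 1 was called, beside 3.37% of all probe sets. The median log2 difference of the 50 was -0.08. Of 10 tested probe sets of CDK inhibitors and regulators, 1 was called, as higher in dao (median log2 0.48). At an unadjusted limma p under 0.05 there were 7 of the 10, 5 higher and 2 lower, beside 26.4% of all probe sets. The groups did not overlap for 7 of the 10, 5 higher and 2 lower, beside 31.4% of all. Whether these shares differ from those of all probe sets was not tested. The probe set called was that of SMR1, of the SIAMESE-related CDK inhibitors known from Arabidopsis. It read 4.73, 7.42 and 4.63 in wild type and 17.6, 15.4 and 14.9 in dao. All dao arrays were above the highest wild-type array (log2 1.54, adjusted p = 0.00628). The wild-type mean of 5.59 lay under the filter limit of 6.33, so SMR1 was tested only through its dao arrays and the size of the difference is not exact. The call was lost without wild-type array 3 (adjusted p = 0.0514), without both arrays numbered 3 (0.290) and with 32 added to each signal (log2 0.35), and it was not tested with the filter at the 60th percentile. EL2, of the same list, overlapped between groups by both of its probe sets (log2 0.56 and 0.47, limma adjusted p = 0.241 and 0.577).

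CKS1, a small subunit that binds CDKs, was at 323, 232 and 266 in wild type and at 170, 151 and 179 in dao. The groups lay well apart, with a log2 difference of -0.70 (SE 0.15, adjusted p = 0.0267, short of 2-fold), and the adjusted p was at most 0.05 in 13 of 18 settings (0.402 without both arrays numbered 3). CDC25.1, which the gene table also names as the arsenate reductase ACR2.1, was at 2102, 2330 and 2323 against 2929, 3640 and 3198 (log2 0.53, adjusted p = 0.0187, short of 2-fold). The adjusted p was 0.0925 without wild-type array 3, 0.0956 without dao array 3 and 0.389 without both arrays numbered 3. The KRP genes encode inhibitors that bind CDKs and D-type cyclins. KRP1 was at 326, 416 and 358 in wild type and at 460.4, 474 and 479 in dao (log2 0.37, adjusted p = 0.0863). KRP4 was at 71.8, 55.5 and 57.6 against 94.8, 78.9 and 84.7 (log2 0.49, adjusted p = 0.0859), and KRP5 at 13.6, 13.2 and 11.3 against 16.2, 17.8 and 19.1 (log2 0.48, adjusted p = 0.0753). These 3 were higher and KRP6 lower on every dao array (log2 -0.52, adjusted p = 0.114), and none of the 4 passed.

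None of the 26 tested probe sets of DNA replication was called (median log2 -0.09). PCNA, the sliding clamp of DNA polymerase, was at 38.3, 38.1 and 36.4 in wild type and at 53.4, 59.1 and 50.9 in dao (log2 0.53, adjusted p = 0.0455). RPA70c, a subunit of the single-strand binding complex, was at 91.5, 100.1 and 93.4 against 66.4, 66.1 and 53.4 (log2 -0.62, adjusted p = 0.0324). Both were without overlap and short of 2-fold, and the adjusted p was at most 0.05 in 6 of 18 settings for PCNA and in 11 for RPA70c. Without both arrays numbered 3 it was 0.502 for PCNA and 0.501 for RPA70c. The 6 genes MCM2 to MCM7, which encode the replicative helicase, all had lower means in dao, with log2 differences from -0.80 to -0.13 and adjusted p from 0.0824 to 0.775, and for MCM7 alone the groups did not overlap. Differences were below 0 for 17 of the 26 in the replication list, and for 17406 of all 34355 probe sets tested. By contrast, 1 probe set of MCM9 was higher on every dao array (log2 0.59, limma adjusted p = 0.0695), and another overlapped (log2 -0.03).

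None of the 2 tested probe sets of the retinoblastoma-related genes, the 6 of histones or the 6 of the mitosis and cytokinesis list was called. The last holds SPO11 genes, whose family is known for meiotic recombination, beside MYB3R-2 and NACK. RBR2 was at 151, 143 and 143 against 163, 147 and 154 (log2 0.09, adjusted p = 0.666). CenH3, the centromeric histone, was at 81.0, 78.02 and 73.9 against 51.4, 66.1 and 54.1, below wild type on every dao array (log2 -0.45, adjusted p = 0.0933). NACK, a kinesin of cytokinesis, was at 11.9, 12.1 and 13.9 against 7.19, 11.8 and 9.05 (log2 -0.46, adjusted p = 0.172). In both CenH3 and NACK dao array 2 was the nearest to wild type, as for CYCB1-1. At an unadjusted p under 0.05 the histones had 1 probe set, the mitosis and cytokinesis list 1, DNA replication 7 and the retinoblastoma-related genes 0, where 26.4% of all probe sets tested had one. The 7 of 26 in DNA replication are close to that share, and on the adjusted p alone PCNA and RPA70c passed of these lists.

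**Figure D5:**
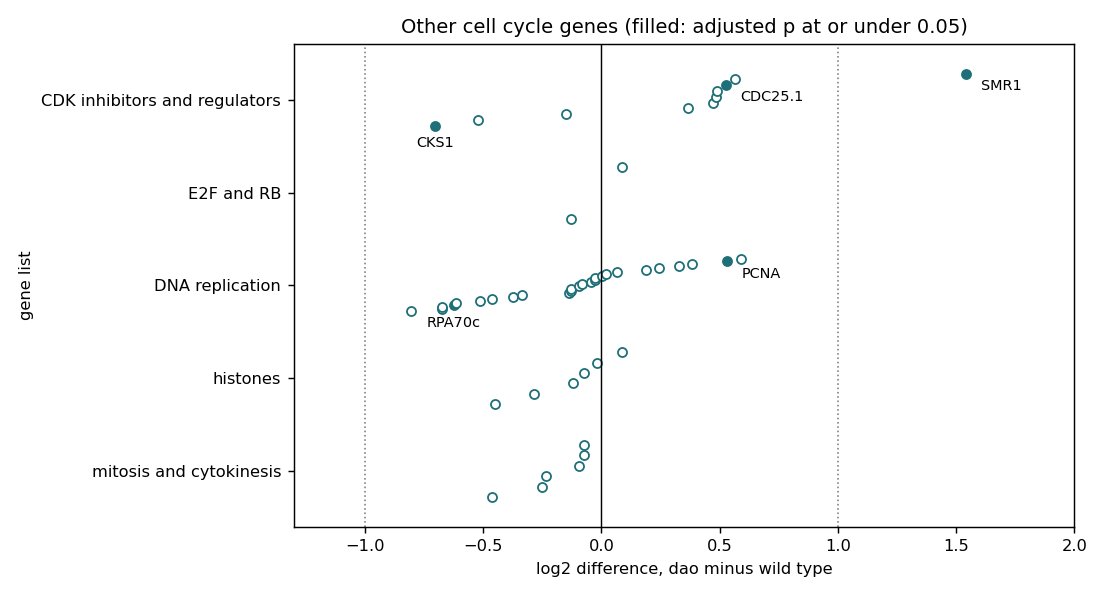
Log2 difference, dao minus wild type, of the 50 tested probe sets in 5 further lists of cell cycle genes, filled and named where the adjusted p was at most 0.05, with dotted lines at a 2-fold difference. SMR1 at 1.54 lies outside the lines, and CKS1, CDC25.1, PCNA and RPA70c lie inside them.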

How the data were processed

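The authors deposited linear intensities, 1 value for each probe set of each array. The submitters' processing notes name MAS5, without version or settings, and the values do not settle how they were made: the arrays' quartiles are close, 1428 of the 34355 probe sets tested (4.16%) have exactly the same value on at least 2 arrays, and no source used here states a background correction. Median intensities were 8.82 to 9.33. The 123 control probe sets were left out. Genes come from a table that pairs probe sets with Entrez IDs, named through RefSeq's synonyms (assembly ASM3414082v1), and 0 probe sets paired with several genes had a member among them. Probe sets under the 40th percentile of mean log2 intensity (a geometric mean of 6.33) were left out, which leaves 34355. Log2 values were fitted in R 4.3.3 with limma 3.58.1 (lmFit, eBayes with trend, group as the only term, 2-sided, Benjamini-Hochberg over all probe sets tested).

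The members and lists were chosen with earlier results of these data known. The rule for named genes was every member, values per array for those called and for the 3 of each class with the smallest adjusted p, and of the further lists those called or else the smallest adjusted p. All other members with values, and CKS1, CDC25.1, EL2, the KRP genes, MCM2 to MCM7, MCM9 and PCNA, are outside it and were chosen after their values were seen. The same holds for the markers PSAG, C6, MSP1, RAFTIN1, MADS13, MADS58, MADS21, DL, EXPB9, EXPB10, MEL1, dmc1A, MER3, SDS, PAIR2 and HEI10. An intended list of the anaphase-promoting complex and checkpoint matched no gene. Of the symbol matches 3 (an aquaporin, a zeaxanthin epoxidase and an abscisic acid receptor) were left out of the marker lists. The fit was tested on simulated data, where 12.8% of 2-fold changes and 89.1% of 3-fold changes were called. The absence of calls among the members thus says little about changes near 2-fold. Alternatives changed the filter, scaling, offset, variance model, unit (genes), replicate block and arrays used.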

Additional observations from a re-analysis of the deposited data

How the results depend on the processing

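Of the cyclin and CDK probe sets, 0 were called with all arrays, 1 without dao array 2 (CYCB1-3), 1 without both arrays numbered 2 (CYCB1-1, log2 -1.03) and 2 on the adjusted p alone (0 to 6 when arrays were left out). In the other 15 settings the count was 0, and without both arrays numbered 3, where limma called 0 of all probe sets, 2 members had an unadjusted p under 0.05 (3493 of all). In the further lists 1 was called, against 0 with the filter at the 60th percentile, with 32 added, without wild-type array 3 or without both arrays numbered 3, 2 without dao array 2 and 5 on the adjusted p alone, so this count ran from 0 to 2 when arrays were left out. Over all probe sets 1157 were called, against 402 with 32 added, 616 for genes, 278 without wild-type array 3, 632 without dao array 1, 298 without dao array 3 and 2238 without both arrays numbered 2. The members' median (-0.01) came to 0.044 for genes and ran from -0.037 to 0.081 when arrays were left out. The mitotic cyclins' median (-0.37) came to -0.024 with no filter, where the 2 dim CYCB2-2 probe sets enter, and ran from -0.46 to -0.18 when arrays were left out. That of the CDKs (-0.01) came to 0.063 with the filter at the 60th percentile and 0.11 for genes and ran from -0.079 to 0.072 when arrays were left out, and that of the D-type cyclins ran from 0.06 to 0.18. The sign turned for CYCT1;2 without wild-type array 1 and without dao array 2 (range -0.27 to 0.047 when arrays were left out), and for CYCH1-1 under median scaling (0.026) and in 5 settings without arrays (range -0.21 to 0.18). The DAO call was lost in 6 settings, without wild-type arrays 1 or 3, dao arrays 1 or 3, both arrays numbered 1 (log2 0.71) or both numbered 3 (1.05), with a range of 0.71 to 1.36. With the replicate number as a block 0 members were called, 3 passed on the adjusted p alone and CYCB1-3 was at -0.91 (adjusted p = 0.0293). Over all probe sets the block gave 1136 calls against 1157, and 4273 against 3396 on the adjusted p alone. The deviations of same-numbered arrays correlated at 0.25, 0.18 and 0.09. Wild-type arrays 1 and 2 correlated best with the dao array of the same number, and wild-type array 3 with dao array 2 (0.13). No pairing by number is known, and whether same-numbered arrays share a batch was not tested. The causes of these shifts were not tested.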
